A study of Homo sapiens with 12 samples.

Results

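The 40 genes described here encode the core machinery that starts an autophagosome, expands it and fuses it with the lysosome. They were taken by symbol from a list fixed by pathway step: 5 genes of the ULK complex, 7 of the class III PI3K complexes, 7 of the ATG2, ATG9 and WIPI group, 2 scramblases of the endoplasmic reticulum, 11 of the ATG conjugation systems and 8 of autophagosome-lysosome fusion. All 40 were found once among the 16760 complete genes of the 18E table and once among the 17442 of the siRNA table, and all 40 passed the filter on low values in both. The rule uses no measured value, but the members and lists were chosen with earlier results of these data known.

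The data were RNA-seq expression values of 12 libraries from NCI-H1975 and HCC827, established human lines of non-small cell lung cancer that both carry activating EGFR mutations. In the 18E table each line had 1 library treated with DMSO, 1 with 2.5 µM 18E for 24 h and 1 with 5 µM 18E for 24 h. In the siRNA table each line had 1 library with the control siRNA (siCON) and, at 48 h, 1 each with the siRNAs siDYN-1 and siDYN-2. 18E is a small molecule known here by its code name, and the series title names LIC1, a light intermediate chain of cytoplasmic dynein, as its target. Times for the DMSO and siCON libraries, the siRNA sequences and the gene that siDYN stands for are not spelled out in the labels. In NCI-H1975 the transcript of DYNC1LI1, the gene of LIC1, was at 21.5% of its siCON level under siDYN-1 and 12.8% under siDYN-2, and in HCC827 at 14.9% and 7.49%. With 1 library for each line and treatment, the lines served as replicates, so the p-values measure how far these libraries disagree, which may be technical.

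Values are FPKM, read fragments relative to transcript length and library size, and changes are differences of log2(FPKM + 1), which understate the change of low genes. FPKM summed to 486409 in HCC827 with DMSO and up to 685680 in NCI-H1975 with siDYN-2, the number of genes listed at 0 ran from 534 in HCC827 at 5 µM 18E to 2212 in NCI-H1975 with siCON, and sequencing depth is unknown. The 6 epithelial markers summed to between 2293 and 8518 FPKM in the 12 libraries, and 8 markers of blood, endothelial and stromal cells to between 0.89 and 2.84 FPKM. CD3E in either table, HBB in the 18E table and COL1A2 in the siRNA table were not analysed here.

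Autophagy starts when the ULK kinase complex is activated and recruits a class III phosphatidylinositol 3-kinase, whose lipid product is read by the WIPI proteins. ATG9A vesicles and the lipid transfer proteins ATG2A and ATG2B feed the growing membrane, while 2 ubiquitin-like conjugation systems attach ATG8 proteins to it. The closed autophagosome then fuses with the lysosome through SNARE proteins, tethers and the HOPS complex. Dynein moves autophagosomes and lysosomes along microtubules.

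Before treatment the members spanned a wide range of abundance. VAMP8, a SNARE of late endosomes and lysosomes, was the highest member in all 4 control libraries, at 198 FPKM in NCI-H1975 and 167 FPKM in HCC827 with DMSO and at 337 and 274 FPKM with siCON. ULK2, the less abundant of the ULK kinases, was at 2.63 and 1.10 FPKM in the NCI-H1975 controls and at 0.17 and 0.15 FPKM in those of HCC827. It was thus near the bottom of the list in NCI-H1975 and the lowest member in HCC827. In the controls of both tables, 10 of the 40 members were at least 1.5-fold lower in the HCC827 control than in the NCI-H1975 control (ULK2, RB1CC1, ATG101, ATG2B, WIPI1, WDR45, ATG12, SNAP29, EPG5 and VPS41), beside 19.8% of all genes. No member was at least 1.5-fold higher in both HCC827 controls, beside 12.9% of all genes. These are single libraries of each line, and the difference has no replicate check.

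At 5 µM 18E few of these genes were past 1.5-fold in both lines. WDR45, which encodes the WIPI4 protein, was the only member at least 1.5-fold higher than DMSO in both lines, beside 3.09% of all genes tested, and 0 of 40 were at least 1.5-fold lower in both, beside 5.13%. With the FPKM totals of the libraries made equal, these counts were 0 and 1, and with quantile normalization 2 and 0. In the fit over both lines 0 of 40 members had an adjusted p under 0.05, beside 0.00837% of all genes. At an unadjusted p under 0.05, 6 of 40 were higher (ATG101, WIPI1, WDR45, ATG4D, ATG12 and PLEKHM1) beside 10.0% of all genes, and 3 of 40 were lower (SNAP29, VPS41 and TECPR1) beside 16.8%. The count of 6 became 16 without the NCI-H1975 library at 5 µM, beside 19.8% of all genes, and 2 without the HCC827 DMSO library, beside 4.31%. The count of 3 became 6 without the NCI-H1975 library at 5 µM, beside 29.4% of all genes, and 0 without the HCC827 DMSO library, beside 6.75%. It was 1 without the NCI-H1975 DMSO library or either library at 2.5 µM, beside 10.3% to 11.8%. In direction alone, 14 of 40 members were higher in both lines, beside 25.5% of all genes, and 13 were lower in both, beside 40.8%. The median fitted change of the 40 members was 0.08, against -0.09 over all genes tested, and it was -0.02 without either the DMSO or the 5 µM library of HCC827 and 0.28 without the NCI-H1975 library at 5 µM.

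Fewer members were called at 2.5 µM. WDR45 was again the only member at least 1.5-fold higher in both lines, beside 1.11% of all genes, and 0 members were that much lower in both, beside 0.335%. No member and 0% of all genes had an adjusted p under 0.05. At an unadjusted p under 0.05 WDR45 was the 1 member called higher, beside 3.25% of all genes, and 0 were called lower, beside 2.01%. The direct test of 5 µM against 2.5 µM also gave 0 members and 0% of all genes at an adjusted p under 0.05. In it ATG101 was the 1 member higher at an unadjusted p under 0.05, beside 3.71% of all genes, and 0 were lower, beside 8.05%. At 2.5 µM the 1 higher member became 3 without either library at 5 µM, beside 9.39% and 9.58% of all genes, 2 without the NCI-H1975 DMSO library, beside 3.1%, and 0 without the NCI-H1975 library at 2.5 µM or the HCC827 DMSO library, beside 1.51% and 1.99%. Between the doses the 1 became 12 without the NCI-H1975 library at 5 µM, beside 16.7% of all genes. It became 2 without the NCI-H1975 library at 2.5 µM or the HCC827 DMSO library, beside 3.55% and 5.35%, and 0 without the HCC827 library at 2.5 or 5 µM, beside 0.82% and 2.47%. The members lower between the doses became 3 without the NCI-H1975 library at 5 µM, beside 26.8% of all genes, and 1 without that at 2.5 µM, beside 4.48%. At 2.5 µM 1 member was lower without either library at 5 µM, beside at least 7.48% of all genes.

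The counts in single libraries of the lines were furthest apart at 5 µM. In HCC827, 12 of 40 members were at least 1.5-fold higher than DMSO, beside 15.5% of all genes: ULK1, RB1CC1 and ATG101 of the ULK complex, ATG14, then ATG9A, WIPI2 and WDR45, then ATG3, ATG4A, ATG5 and ATG12 of the conjugation systems, and PLEKHM1. In NCI-H1975 at 5 µM only WIPI1 and WDR45 were, beside 5.62% of all genes. TECPR1 was the 1 member at least 1.5-fold lower in HCC827, beside 21.2%, and ATG2B the 1 in NCI-H1975, beside 9.23%. At 2.5 µM the members at least 1.5-fold higher were WIPI1 and WDR45 in NCI-H1975, beside 2.85%, and ULK1 and WDR45 in HCC827, beside 4.54%, and 0 were lower in either line, beside 2.45% and 2.75%. The difference between the lines itself was tested as an interaction in which the doses stood in for replicates. At an unadjusted p under 0.05 it called 0 of 40 members larger in HCC827, beside 0.820% of all genes, and 0 smaller, beside 0.895%. All genes tested had a median change of -0.10 in HCC827 at 5 µM and -0.07 in NCI-H1975. With the FPKM totals made equal these medians became -0.17 and -0.19. WDR45 then fell short of 1.5-fold in NCI-H1975, where 1 member was left, beside 3.76% of all genes. The members at least 1.5-fold lower in that library became 5 instead of 1. The share of all genes that much lower there also rose above its 9.23%.

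**Figure D1:**
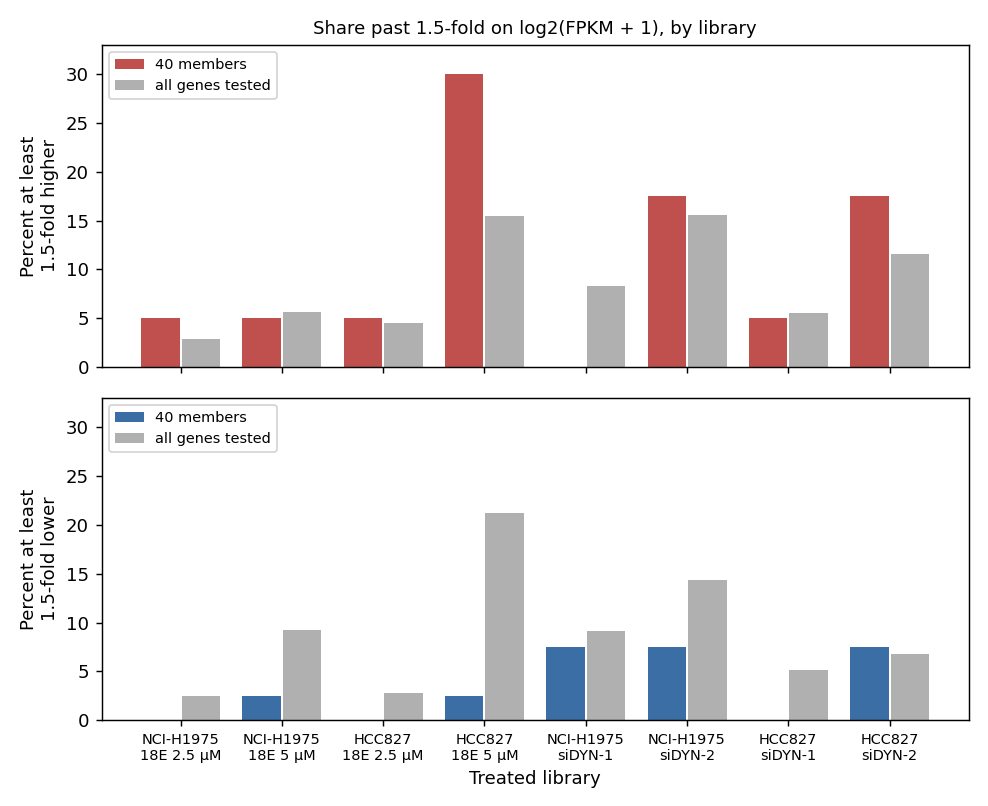
Percent of the 40 members (coloured bars) and of all genes tested (grey bars) at least 1.5-fold higher (top) or lower (bottom) than the control of the same line and table, on log2(FPKM + 1), for the 8 treated libraries. In HCC827 at 5 µM 18E 12 of the 40 members stood past 1.5-fold higher, beside 15.5% of all genes, and in the other 7 libraries between 0 and 7 did.

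With the siRNAs, ATG101 and PLEKHM1 were again among the members called higher. The share of all genes called higher in both experiments was not counted, so this overlap is not read as a result. Over both siRNAs and both lines 0 of 40 members, and 0% of all genes, had an adjusted p under 0.05 against siCON. At an unadjusted p under 0.05, 6 of 40 were higher (ATG101, BECN1, ATG2A, WIPI2, VAMP8 and PLEKHM1), beside 12.6% of all genes, and 3 were lower (RB1CC1, PIK3R4 and STX17), beside 13.4%. The 6 became 0 without the HCC827 siCON library, beside 6.48% of all genes, and 2 without that of NCI-H1975, beside 3.83%. The 3 became 0 without the NCI-H1975 siCON library, beside 2.2%. In all 4 siDYN libraries 12 members were higher than siCON, beside 24.9% of all genes, and 6 were lower, beside 25.6%. None was at least 1.5-fold higher in all 4 libraries, beside 1.34%, or lower, beside 0.700%. The median fitted change was -0.07 for the members and 0.01 for all genes, and the members' median was 0.05 without the HCC827 siCON library. In the test of the difference between lines 0 members were called larger, beside 0.845% of all genes, and 0 smaller, beside 0.674%.

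The siRNAs were also set against siCON one at a time and against each other. Against siCON, siDYN-1 alone gave 0 of 40 members at an adjusted p under 0.05, beside 0.700% of all genes. With siDYN-2 alone 8 of 40 passed, beside 18.1% of all genes: ATG101, BECN1, RUBCN, ATG2A, WDR45, VAMP8 and PLEKHM1 rose and WDR45B fell. At an unadjusted p under 0.05 siDYN-2 alone called 10 higher and 4 lower, beside 20.9% and 17.5% of all genes. With equal FPKM totals these were 7 and 5, beside 15.6% and 22.8%. Without cell line in the fit they were 2 and 1, beside 4.12% and 3.64%. Whether the 8 adjusted calls hold in the alternatives is not given here. The direct test of siDYN-2 against siDYN-1 called 1 member at an adjusted p under 0.05, WDR45B, beside 0.606% of all genes. At an unadjusted p under 0.05 it called 6 higher with siDYN-2 (RUBCN, WDR45, ATG7, ATG16L2, VAMP8 and PLEKHM1), beside 13.0%, and 2 lower (WDR45B and VPS41), beside 7.90%. The count of 2 became 1 without the siDYN-1 library of NCI-H1975 or HCC827, beside 4.94% and 3.81% of all genes, and 4 without the NCI-H1975 siDYN-2 library, beside 7.53%.

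By library, members at least 1.5-fold higher than siCON numbered 0 in NCI-H1975 with siDYN-1, beside 8.29% of all genes, and 7 with siDYN-2 (ATG101, BECN1, WDR45, ATG4A, ATG16L1, VAMP8 and PLEKHM1), beside 15.6%. In HCC827 they numbered 2 with siDYN-1 (BECN1 and WIPI1), beside 5.53%, and 7 with siDYN-2 (BECN1, RUBCN, ATG2A, WIPI1, WDR45, VAMP8 and PLEKHM1), beside 11.6%. BECN1, WDR45, VAMP8 and PLEKHM1 stood on both siDYN-2 lists. How many of all genes did so was not counted, so this overlap is not read as a result. Members at least 1.5-fold lower were RB1CC1, PIK3R4 and TMEM41B in NCI-H1975 with siDYN-1, beside 9.18%, and RB1CC1, PIK3R4 and WDR45B with siDYN-2, beside 14.4%. In HCC827 there were 0 with siDYN-1, beside 5.15%, and WDR45B, ATG10 and VPS41 with siDYN-2, beside 6.76%.

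**Figure D2:**
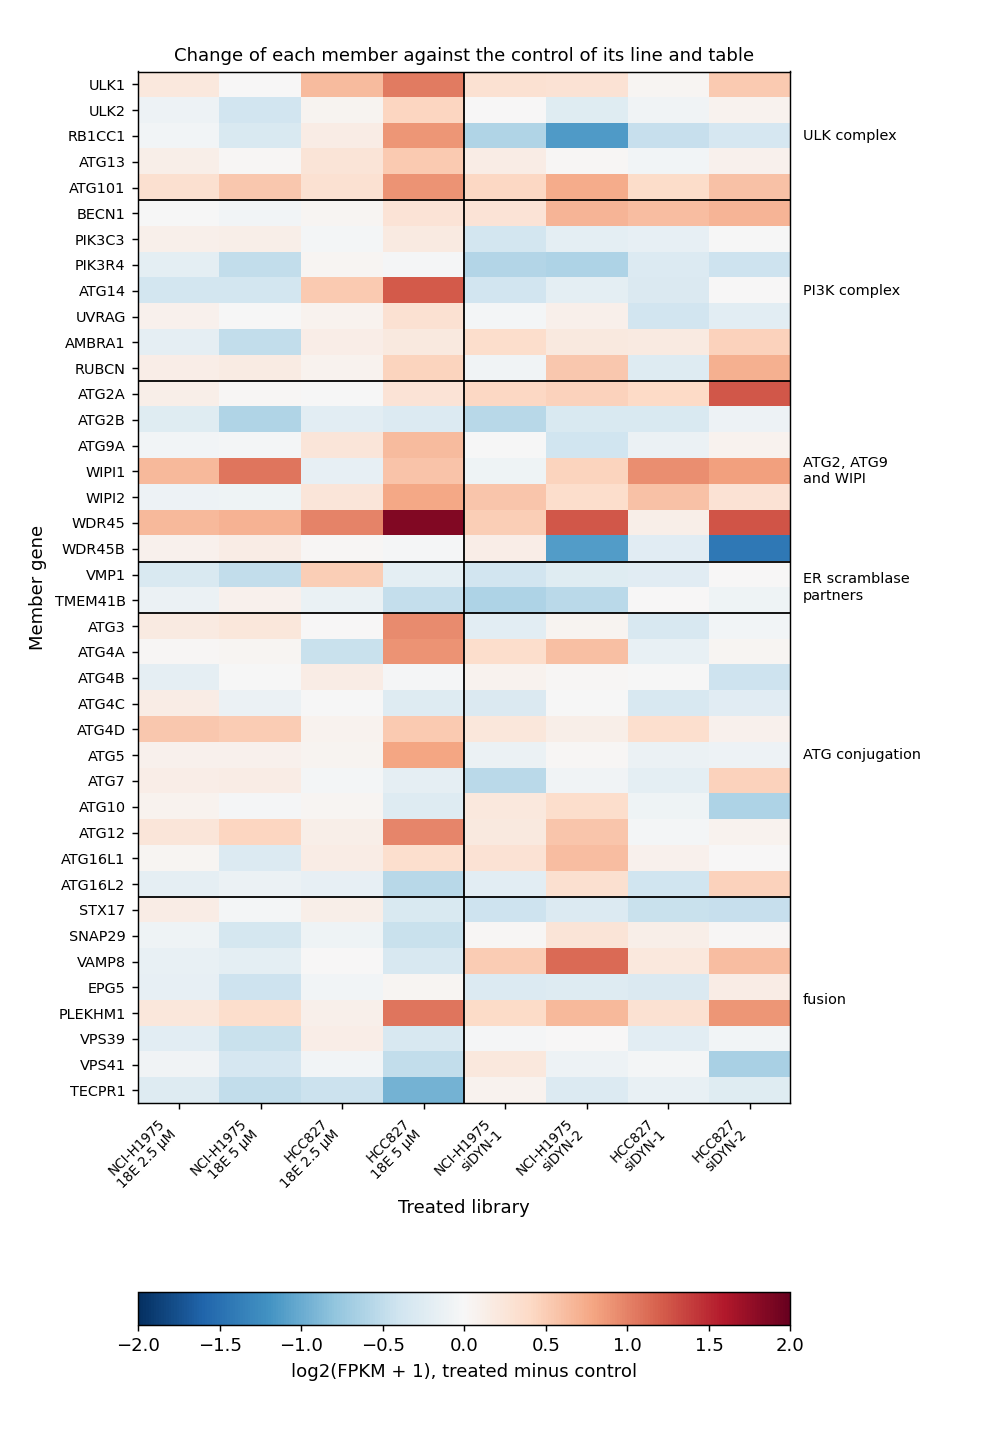
Change of each of the 40 members (rows, grouped by pathway step) in each of the 8 treated libraries (columns), as log2(FPKM + 1) minus that of the control of the same line and table, red for higher and blue for lower. The darkest red cell is WDR45 in HCC827 at 5 µM 18E (1.85) and the darkest blue is WDR45B in HCC827 with siDYN-2 (-1.44).

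Across both experiments 5 of the 40 members (ULK1, ATG101, WDR45, ATG4D and PLEKHM1) were higher than their control in all 8 treated libraries, beside 7.20% of all genes, and 1 (ATG2B) was lower in all 8, beside 10.6%. The treated libraries of a line and table share their control, so these are not 8 independent comparisons. With the FPKM totals made equal, ULK1 and ATG4D left the first group, and PIK3R4, TMEM41B and TECPR1 joined ATG2B in the second. The bases before the start are shown for WDR45, ULK1 and PLEKHM1, the 3 of the 5 for which the RefSeq promoter table (GRCh38.p14) held at least 150 bases within 250 before a start that no GENCODE exon covers. They are printed in lower case throughout, because none of the motifs searched lies in these stretches.
WDR45, chrX:49101179-49101428, minus strand: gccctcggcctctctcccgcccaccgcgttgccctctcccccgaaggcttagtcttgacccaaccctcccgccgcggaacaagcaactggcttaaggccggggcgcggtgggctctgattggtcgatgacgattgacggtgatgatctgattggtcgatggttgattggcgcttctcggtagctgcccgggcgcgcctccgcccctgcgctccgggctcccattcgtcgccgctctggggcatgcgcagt
ULK1, chr12:131894372-131894621, plus strand: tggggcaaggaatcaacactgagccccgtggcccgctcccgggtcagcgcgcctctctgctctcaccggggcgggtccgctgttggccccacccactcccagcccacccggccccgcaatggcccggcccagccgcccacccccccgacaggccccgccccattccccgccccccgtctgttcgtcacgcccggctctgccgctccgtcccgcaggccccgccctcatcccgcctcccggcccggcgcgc
PLEKHM1, chr17:45490750-45490971, minus strand: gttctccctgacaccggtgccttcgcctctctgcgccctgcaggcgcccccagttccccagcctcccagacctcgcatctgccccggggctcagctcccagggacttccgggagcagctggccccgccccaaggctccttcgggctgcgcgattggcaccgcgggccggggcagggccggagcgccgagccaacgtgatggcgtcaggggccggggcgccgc
The stretches hold 66.8% G and C for WDR45, 78.0% for ULK1 and 75.2% for PLEKHM1.

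RefSeq gave 34 of the 40 members a promoter window, 39 windows in all, each with 250 bases before and 50 after a start. Both strands were searched for 5 motifs: TCACGTGA, the core of the CLEAR element read by TFEB and TFE3, CACGTG, the E-box inside it, TGATGNAAT, the element of ATF4 with a C/EBP partner, GTAAACA of the FOXO factors, and GAANNTTC, paired units of the heat shock element. TCACGTGA was in 1 of 39 windows (2.56%, against 0.980% of all 35116 windows in the table), and CACGTG, which every TCACGTGA contains, was in 3 (7.69%, against 7.26%). GTAAACA was in 1 (2.56%, against 3.42%), and TGATGNAAT and GAANNTTC were in 0, against 0.991% and 6.77%. The 30 bases around each match are printed here with the motif in capitals, to set them beside the values of these genes.
ATG3, chr3:112561951-112561980, minus strand: CACGTGccgggagagtctagtgTCACGTGA
ATG14, chr14:55411834-55411863, minus strand: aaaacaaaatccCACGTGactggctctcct
SNAP29, chr22:20858811-20858840, plus strand: cggctttcccgcCACGTGacctctcagttg
WDR45, chrX:49079871-49079900, minus strand: tagggcctgatGTAAACAcccgagccgggc
Counted from 0 at the start, ATG3 holds CACGTG from -18 to -13 and TCACGTGA from 4 to 11, and its 30 bases run from the first base of the one to the last base of the other. The E-box of ATG14 runs from -21 to -16 and that of SNAP29 from -184 to -179, and GTAAACA crosses the second start of WDR45, from -2 to 4. At 5 µM 18E the E-box genes had changes of both signs: in HCC827 the change was 0.95 for ATG3, 1.23 for ATG14 and -0.45 for SNAP29, and in NCI-H1975 it was 0.23, -0.37 and -0.35.

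The ULK complex, which receives signals from mTORC1 and AMPK, had positive fitted changes at 5 µM in 5 of its 5 members with a median of 0.29, and in 3 of 5 with siDYN with a median of 0.05. Over all genes tested 41.6% of the fitted changes were positive at 5 µM, with a median of -0.09, and 50.9% with siDYN, with a median of 0.01, which is the background for each step. With equal FPKM totals the count at 5 µM was 4 and the siDYN median was -0.06. By line at 5 µM, 3 of 5 were positive in NCI-H1975, with a median of 0.01, and 5 of 5 in HCC827, with a median of 0.88. ATG101, which stabilises ATG13 in the complex, was at 77.3, 96.5 and 113 FPKM in NCI-H1975 with DMSO, 2.5 µM and 5 µM, and at 45.3, 56.3 and 85.7 FPKM in HCC827. Both lines stepped up at each dose. Its siCON, siDYN-1 and siDYN-2 levels were 132, 177 and 222 FPKM in NCI-H1975 and, in HCC827, 73.4, 95.3 and 110 FPKM, so each siDYN library lay above the siCON of its own line. The fitted change was 0.73 ± 0.16 (SE) at 5 µM with an adjusted p of 0.104, and 0.41 ± 0.16 from 2.5 to 5 µM with an adjusted p of 0.411. With siDYN-2 ATG101 rose by 0.66 ± 0.12 (adjusted p of 0.0226), and with siDYN-1 the change was 0.39 ± 0.12 (adjusted p of 0.107). ATG101 (chromosome 12, 52069246 to 52077494, plus strand) shares 19.2% of its exon bases with an antisense gene, AC025259.1, and whether reads were counted by strand is not stated.

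RB1CC1 encodes FIP200, the scaffold of the ULK complex. Its levels were 11.8, 11.3 and 9.39 FPKM in NCI-H1975 and, in HCC827, 5.15, 5.81 and 10.3 FPKM over DMSO, 2.5 µM and 5 µM, so the lines moved in opposite directions. With siCON, siDYN-1 and siDYN-2 they stood at 8.28, 5.10 and 3.22 FPKM in NCI-H1975 and at 4.20, 2.79 and 3.14 FPKM in HCC827. All 4 siDYN libraries lay below their siCON, with a fitted change of -0.63 ± 0.21 and an adjusted p of 0.131. ULK1, the main initiating kinase, was named after its values were seen. It was at 3.33, 3.99 and 3.36 FPKM in NCI-H1975 and at 4.64, 7.71 and 10.7 FPKM in HCC827 with 18E, a fitted change of 0.53 ± 0.27 at 5 µM (adjusted p of 0.264), and HCC827 was the line in which each dose lay above the one before. ATG13 and ULK2 had no unadjusted p under 0.05.

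Of the 7 genes of the PI3K complexes, 5 had a positive fitted change at 5 µM, with a median of 0.15, and 3 with siDYN, with a median of -0.13. By line at 5 µM, 2 of 7 were positive in NCI-H1975, with a median of -0.06, and 6 of 7 in HCC827, with a median of 0.27. Beclin 1, encoded by BECN1, is the scaffold shared by these complexes. BECN1 was at 53.7, 53.2 and 51.6 FPKM in NCI-H1975 and at 48.1, 49.2 and 58.2 FPKM in HCC827 with DMSO, 2.5 µM and 5 µM, a fitted change of 0.11 ± 0.16 at 5 µM. In the siRNA libraries (siCON, siDYN-1, siDYN-2) it was at 35.6, 43.2 and 57.3 FPKM in NCI-H1975 and at 29.97, 46.3 and 48.4 FPKM in HCC827. The siDYN libraries were above siCON in both lines, and BECN1 rose by 0.67 ± 0.14 with siDYN-2 (adjusted p of 0.0305), while the change was 0.44 ± 0.14 with siDYN-1 (adjusted p of 0.122). BECN1 shares 12.4% of its exon bases with CNTD1 on the opposite strand, and CNTD1 was at or below 0.46 FPKM in all 12 libraries. It shares 4.68% with PSME3, also on the opposite strand, which was at 82.8 to 112 FPKM, above BECN1 in all 12 libraries, and higher than siCON in the 4 siDYN libraries by 0.11 to 0.23. The part of PSME3 in the BECN1 values was not tested.

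RUBCN encodes Rubicon, which restrains the complex at late steps. It was at 4.71, 5.25 and 5.41 FPKM in NCI-H1975 and at 5.57, 5.90 and 7.97 FPKM in HCC827 with 18E. After siCON, siDYN-1 and siDYN-2 it was at 4.20, 3.93 and 6.58 FPKM in NCI-H1975 and at 2.66, 2.07 and 5.02 FPKM in HCC827. Both lines were a little lower with siDYN-1 and higher with siDYN-2, and the direct difference of the siRNAs was 0.80 ± 0.16 (adjusted p of 0.0704). RUBCN rose by 0.63 ± 0.16 with siDYN-2 against siCON (adjusted p of 0.0413).

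PIK3R4 encodes VPS15, the regulatory kinase-like subunit. It was at 12.8, 11.0 and 8.83 FPKM in NCI-H1975 and at 10.2, 10.4 and 9.95 FPKM in HCC827 with 18E. Under siCON, siDYN-1 and siDYN-2 it was at 6.99, 4.32 and 4.19 FPKM in NCI-H1975 and at 6.11, 4.88 and 4.36 FPKM in HCC827. All siDYN libraries were below their siCON, with a fitted change of -0.47 ± 0.15 and an adjusted p of 0.12. ATG14, which directs the complex to the site of autophagosome formation, was named after its values were seen, for the distance between the lines. It was at 7.37, 5.48 and 5.47 FPKM in NCI-H1975 and at 4.62, 7.08 and 12.2 FPKM in HCC827 with 18E, lower in the one and higher in the other. The interaction was 1.25 ± 0.52 with an unadjusted p of 0.0577 and an adjusted p of 0.999. The catalytic subunit PIK3C3, UVRAG and AMBRA1 had fitted changes between -0.18 and 0.29 at 5 µM and over both siRNAs, none with an unadjusted p under 0.05. The interaction of AMBRA1 with 18E was 0.50, with an unadjusted p of 0.248.

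Of the 7 ATG2, ATG9 and WIPI genes, 6 had a positive fitted change at 5 µM, with a median of 0.30. With siDYN 4 had, with a median of 0.44. By line at 5 µM, 4 of 7 were positive in NCI-H1975, with a median of 0.03, and 5 of 7 in HCC827, with a median of 0.58. This step held the 2 members with the largest fitted changes, WDR45 and WDR45B. WDR45 (chromosome X, 49071470 to 49101170, minus strand) encodes WIPI4, which binds ATG2 and is mutated in a neurodegeneration with brain iron accumulation. It was at 15.8, 25.4 and 26.3 FPKM in NCI-H1975 and at 10.1, 21.1 and 39.2 FPKM in HCC827 with DMSO, 2.5 µM and 5 µM, above DMSO in all 4 treated libraries. Its siCON, siDYN-1 and siDYN-2 levels were 24.0, 34.1 and 57.9 FPKM in NCI-H1975 and, in HCC827, 12.4, 13.5 and 30.8 FPKM. The library with siDYN-2 was the highest of its line. The fitted change was 0.82 ± 0.29 at 2.5 µM (adjusted p of 0.915) and 1.28 ± 0.29 at 5 µM (adjusted p of 0.104). The latter had an unadjusted p under 0.05 under every alternative tried, with values from 0.78, without the HCC827 library at 5 µM, to 1.77, without that of NCI-H1975. With siDYN-2 WDR45 rose by 1.25 ± 0.15 (adjusted p of 0.0179), with siDYN-1 the change was 0.31 ± 0.15 (adjusted p of 0.245), and the difference of the siRNAs was 0.94 ± 0.15 (adjusted p of 0.0531). WDR45 shares 13.9% of its exon bases with PRAF2 on the same strand. PRAF2 was at 11.8, 10.4 and 12.1 FPKM in NCI-H1975 and at 0.29, 0.37 and 0.52 FPKM in HCC827 with 18E, and its changes ran from -0.16 to 0.24 in those 4 treated libraries. With siDYN-2 the change of PRAF2 was 0.13 in NCI-H1975, to 15.5 FPKM, and 0.48 in HCC827, to 0.60 FPKM, and its part in the WDR45 values was not tested.

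WDR45B (chromosome 17, 82614562 to 82648553, minus strand) encodes WIPI3, the closest relative of WIPI4. With 18E it stayed between 44.5 and 51.6 FPKM in the 6 libraries, and the fitted change at 5 µM was 0.06 ± 0.15 (95% interval of -0.30 to 0.43). In the siRNA libraries (siCON, siDYN-1, siDYN-2) it was at 35.3, 38.8 and 15.7 FPKM in NCI-H1975 and at 44.5, 37.9 and 15.8 FPKM in HCC827. The siDYN-2 libraries of both lines lay far below the other 4. WDR45B fell by 1.28 ± 0.14 with siDYN-2 against siCON (adjusted p of 0.0179), with siDYN-1 the change was -0.05 ± 0.14 (adjusted p of 0.857), and the direct difference was -1.23 ± 0.14 (adjusted p of 0.0431). With no filter on low values, with no variance trend, without the line term or without the HCC827 siDYN-1 library, this last call was lost. With siDYN-2 WDR45 was the highest member by its change in both lines, while WDR45B was the lowest in HCC827 (-1.44) and next to RB1CC1 (-1.14) the lowest in NCI-H1975 (-1.12). Whether the siDYN-2 sequence matches the WDR45B transcript was not tested, since the siRNA sequences were not used here.

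**Figure D3:**
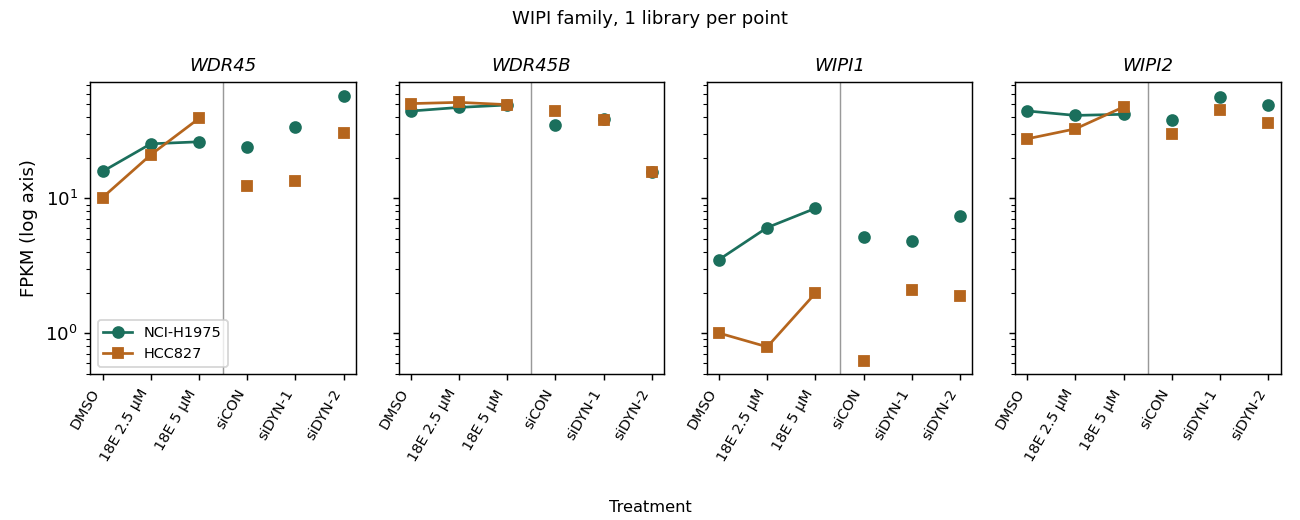
FPKM on a log axis of the 4 WIPI family genes in the 12 libraries, 1 point per library, circles for NCI-H1975 and squares for HCC827, with lines joining the 18E doses of a line. WDR45 was highest with siDYN-2 in NCI-H1975 (57.9 FPKM), where WDR45B was lowest (15.7 FPKM), and WIPI1 lay lower in HCC827 than in NCI-H1975 in each treatment.

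WIPI1 binds phosphatidylinositol 3-phosphate on forming autophagosomes. It was at 3.51, 6.07 and 8.44 FPKM in NCI-H1975 and at 1.00, 0.79 and 1.98 FPKM in HCC827 with DMSO, 2.5 µM and 5 µM. Each line was highest at 5 µM, but HCC827 at 2.5 µM lay below DMSO, and the fitted change at 5 µM was 0.82 ± 0.24 (adjusted p of 0.124). It was at 5.16, 4.82 and 7.38 FPKM in NCI-H1975 and at 0.62, 2.10 and 1.87 FPKM in HCC827 with siCON, siDYN-1 and siDYN-2, a fitted change of 0.53 ± 0.23 (adjusted p of 0.199). WIPI1 shares 24.3% of its exon bases with ARSG on the opposite strand. ARSG was at or below 1.38 FPKM in the 18E libraries and reached 1.86 FPKM in NCI-H1975 with siDYN-2, so WIPI1 in HCC827 is of the same order as this partner.

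WIPI2 links the lipid signal to ATG16L1. With 18E it was at 44.5, 41.3 and 42.1 FPKM in NCI-H1975 and at 27.7, 32.8 and 47.8 FPKM in HCC827, with an increase over dose in HCC827 and none in NCI-H1975. It was at 38.4, 56.6 and 49.1 FPKM in NCI-H1975 and at 29.8, 45.01 and 36.5 FPKM in HCC827 with siCON, siDYN-1 and siDYN-2. Here siDYN-1 was the highest library in both lines, and the fitted change over both siRNAs was 0.44 ± 0.15 (adjusted p of 0.135).

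ATG2A, one of the lipid transfer proteins, was at 5.90, 6.50 and 6.03 FPKM in NCI-H1975 and at 6.55, 6.49 and 8.11 FPKM in HCC827 with 18E. After siCON, siDYN-1 and siDYN-2 it was at 6.83, 9.43 and 9.82 FPKM in NCI-H1975 and at 5.67, 7.82 and 14.8 FPKM in HCC827. All 4 siDYN libraries were above their siCON, and ATG2A rose by 0.85 ± 0.22 with siDYN-2 (adjusted p of 0.0473). Its paralog ATG2B, named after its values were seen, was at 4.61, 3.76 and 2.71 FPKM in NCI-H1975 and at 1.87, 1.48 and 1.37 FPKM in HCC827 with 18E, and at 1.91, 0.98 and 1.36 FPKM and 0.88, 0.53 and 0.75 FPKM with siCON, siDYN-1 and siDYN-2. ATG2B was below the control in all 8 treated libraries, with fitted changes of -0.44 ± 0.18 at 5 µM (adjusted p of 0.196) and -0.31 ± 0.15 with siDYN (adjusted p of 0.243). ATG9A, the scramblase of ATG9 vesicles, had no unadjusted p under 0.05, and its fitted change at 5 µM was 0.30 ± 0.21. ATG9A shares 38.8% of its exon bases with AC068946.2, a protein-coding gene on the same strand, whose part in the ATG9A values was not tested.

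VMP1 and TMEM41B are scramblases of the endoplasmic reticulum that act where autophagosomes form. VMP1 was at 93.5, 75.6 and 66.1 FPKM in NCI-H1975 and at 53.7, 76.0 and 46.7 FPKM in HCC827 with 18E, so at 2.5 µM the lines went in opposite directions. Its fitted change at 5 µM was -0.35 ± 0.22, and that of TMEM41B was -0.20 ± 0.20. With siDYN the values were -0.21 ± 0.14 and -0.31 ± 0.17, and neither gene had an unadjusted p under 0.05 in any comparison.

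In the conjugation systems, 6 of 11 members had a positive fitted change at 5 µM, with a median of 0.03, and 5 of 11 with siDYN, with a median of -0.03. With equal FPKM totals the first count was 5 and the median -0.08. ATG12, the ubiquitin-like protein joined to ATG5, was at 24.5, 29.1 and 33.1 FPKM in NCI-H1975 and at 9.07, 9.89 and 18.8 FPKM in HCC827 with DMSO, 2.5 µM and 5 µM. Both lines were highest at 5 µM, with a fitted change of 0.70 ± 0.21 (adjusted p of 0.132). Under siCON, siDYN-1 and siDYN-2 it was at 29.1, 33.6 and 43.1 FPKM in NCI-H1975 and at 12.5, 12.1 and 13.1 FPKM in HCC827, a change of 0.19 ± 0.17.

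ATG4D is one of the proteases that process ATG8 proteins. It was at 13.6, 20.1 and 19.8 FPKM in NCI-H1975 and at 11.7, 12.3 and 17.2 FPKM in HCC827 with 18E, a fitted change of 0.52 ± 0.19 at 5 µM (adjusted p of 0.167). NCI-H1975 reached its level at 2.5 µM and HCC827 at 5 µM. Its siCON, siDYN-1 and siDYN-2 levels were 21.9, 25.9 and 23.9 FPKM in NCI-H1975 and, in HCC827, 16.8, 21.5 and 17.9 FPKM, a change of 0.19 ± 0.14. ATG4D shares 14.97% of its exon bases with KRI1 on the opposite strand. At 5 µM KRI1 went the other way, with changes of -0.19 and -0.37 in NCI-H1975 and HCC827. At 2.5 µM it was higher in both lines, as ATG4D was, by 0.05 and 0.20. Its changes against siCON ran from -0.11 to 0.21. The part of KRI1 in the ATG4D values was not tested. ATG4A, ATG4B and ATG4C had no unadjusted p under 0.05 at 5 µM.

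ATG7, the E1-like enzyme of both conjugation systems, was at 17.3, 19.1 and 19.2 FPKM in NCI-H1975 and at 17.2, 16.8 and 15.1 FPKM in HCC827 with 18E. In the siRNA libraries (siCON, siDYN-1, siDYN-2) it was at 19.6, 13.1 and 18.5 FPKM in NCI-H1975 and at 17.8, 15.4 and 25.0 FPKM in HCC827. The siDYN-1 library was the lowest of each line, and siDYN-2 stood above siDYN-1 by 0.56 ± 0.17 (adjusted p of 0.137). ATG7 shares 18.1% of its exon bases with VGLL4 on the opposite strand. The change of VGLL4 against siCON was -0.56 with siDYN-1 and -0.18 with siDYN-2 in NCI-H1975, and -0.43 and 0.20 in HCC827, so siDYN-1 was its lowest library too, and its part in the ATG7 values was not tested. ATG16L2, a paralog of the ATG16L1 scaffold, was at 1.42, 1.13 and 1.22 FPKM in NCI-H1975 and at 1.93, 1.62 and 1.00 FPKM in HCC827 with 18E. It was at 1.28, 0.96 and 1.86 FPKM in NCI-H1975 and at 1.66, 1.01 and 2.66 FPKM in HCC827 with siCON, siDYN-1 and siDYN-2. Here too the siDYN-1 libraries were the lowest and the siDYN-2 libraries the highest, with a difference of 0.70 ± 0.16 (adjusted p of 0.0859). ATG3, the E2-like enzyme that attaches ATG8 proteins to lipid, was named for its motif: it was at 68.5, 77.9 and 80.4 FPKM in NCI-H1975 and at 42.8, 43.0 and 83.5 FPKM in HCC827 with 18E, a fitted change of 0.59 ± 0.24 at 5 µM (adjusted p of 0.194). ATG5, ATG10 and ATG16L1 had no unadjusted p under 0.05 in the comparisons with DMSO or siCON.

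The fusion genes were mostly below DMSO at 5 µM. Of 8 members, 7 had a negative fitted change, beside 58.4% of all genes tested, and PLEKHM1 was the exception. The median was -0.32, beside -0.09 over all genes tested. It was between -0.42 and -0.29 under the other scalings, with 7 of 8 negative in each. By line, 7 of 8 were negative in NCI-H1975, with a median of -0.34, and 6 of 8 in HCC827, with a median of -0.32. With siDYN 5 of 8 were negative, beside 49.1% of all genes, with a median of -0.11. Of the 6 epithelial markers, EPCAM, KRT18, CDH1 and EGFR were also below DMSO at 5 µM in both lines, at ratios of FPKM from 0.48 (CDH1 in HCC827) to 0.98 (KRT18 in NCI-H1975), while KRT8 and KRT19 were below it in HCC827 only. The 6 together summed to 7834 FPKM with DMSO and 5408 FPKM at 5 µM in HCC827, and to 2569 and 2517 FPKM in NCI-H1975. Their part in these values was not tested.

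PLEKHM1 (chromosome 17, 45435900 to 45490749, minus strand) encodes an adaptor that binds RAB7, the HOPS complex and ATG8 proteins. It was at 10.1, 11.9 and 13.2 FPKM in NCI-H1975 and at 9.31, 10.1 and 20.7 FPKM in HCC827 with 18E, a fitted change of 0.72 ± 0.24 at 5 µM (adjusted p of 0.150). After siCON, siDYN-1 and siDYN-2 it was at 9.74, 13.0 and 15.8 FPKM in NCI-H1975 and at 6.27, 8.02 and 12.4 FPKM in HCC827. Every treated library lay above its control. PLEKHM1 rose by 0.76 ± 0.15 with siDYN-2 (adjusted p of 0.0252), and with siDYN-1 the change was 0.34 ± 0.15 (adjusted p of 0.190).

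VAMP8, the SNARE on the lysosome, was at 198, 178 and 172 FPKM in NCI-H1975 and at 167, 168 and 133 FPKM in HCC827 with 18E, a fitted change of -0.26 ± 0.14 at 5 µM (adjusted p of 0.285). Under siCON, siDYN-1 and siDYN-2 it was at 337, 481 and 738 FPKM in NCI-H1975 and at 274, 316 and 420 FPKM in HCC827. All 4 siDYN libraries lay above their siCON, and VAMP8 rose by 0.87 ± 0.15 with siDYN-2 (adjusted p of 0.0217), against 0.36 ± 0.15 with siDYN-1 (adjusted p of 0.185). Its partners on the autophagosome were outside the naming rule. STX17 had a fitted change of -0.39 ± 0.14 over both siRNAs (adjusted p of 0.145), and SNAP29 had a fitted change of -0.40 ± 0.16 at 5 µM (adjusted p of 0.184).

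TECPR1 is a tether that binds the ATG12-ATG5 conjugate. It was at 5.93, 4.78 and 3.95 FPKM in NCI-H1975 and at 6.05, 4.23 and 2.66 FPKM in HCC827 with DMSO, 2.5 µM and 5 µM. Both lines were lower at each dose than at the one before, and the fitted change at 5 µM was -0.72 ± 0.19 (adjusted p of 0.115). Its siCON, siDYN-1 and siDYN-2 levels were 6.97, 7.39 and 5.57 FPKM in NCI-H1975 and, in HCC827, 4.58, 4.06 and 3.72 FPKM, a change of -0.15 ± 0.16. VPS41 is a subunit of the HOPS tethering complex. It was at 29.97, 28.3 and 23.6 FPKM in NCI-H1975 and at 15.5, 14.9 and 10.7 FPKM in HCC827 with 18E, again lowest at 5 µM in both lines, with a fitted change of -0.41 ± 0.16 (adjusted p of 0.174). It was at 18.3, 21.3 and 17.0 FPKM in NCI-H1975 and at 10.9, 10.49 and 6.59 FPKM in HCC827 with siCON, siDYN-1 and siDYN-2, and siDYN-2 was below siDYN-1 by a fitted difference of -0.46 ± 0.17 (adjusted p of 0.203). VPS39, another HOPS subunit, had a fitted change of -0.38 ± 0.17 at 5 µM and EPG5, a RAB7 effector, of -0.19 ± 0.19, both with an unadjusted p above 0.05.

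**Figure D4:**
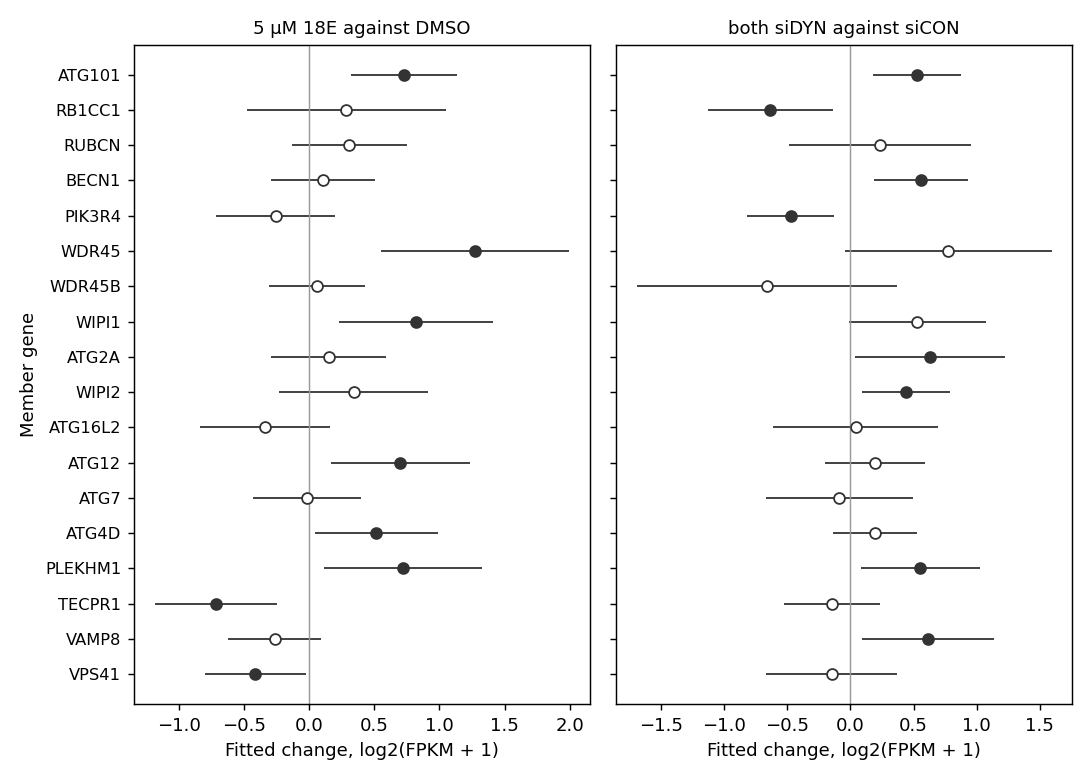
Fitted change on log2(FPKM + 1) with its 95% interval for the 18 members given in full, at 5 µM 18E against DMSO (left) and over both siDYN against siCON (right), filled where the unadjusted p was under 0.05. ATG101 and PLEKHM1 are filled on the right of 0 in both panels, and no member had an adjusted p under 0.05 in either. The share of all genes called higher in both was not counted.

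Beside these genes, 28 related autophagy genes (further SNAREs, HOPS subunits and regulators) were listed, of which 25 were tested with 18E and 24 with siDYN. None had an adjusted p under 0.05 at 5 µM or over both siRNAs. At 5 µM, 4 of 25 were higher at an unadjusted p under 0.05 (NRBF2, VPS11, MTMR14 and WDR41), beside 10.0% of all genes, and 1 was lower (TECPR2, with a fitted change of -0.73 ± 0.19), beside 16.8%. With siDYN, 4 of 24 were higher (YKT6, SNAP47, VPS18 and TEX264), beside 12.6% of all genes, and 3 lower (EI24, TP53INP2 and PIK3C2A), beside 13.4%. The ATG8 family are the proteins that the conjugation systems attach to membranes. At 5 µM MAP1LC3B had a fitted change of 2.12 ± 0.46 and GABARAPL1 of 2.77 ± 0.43, with adjusted p of 0.104 and 0.10, while GABARAP had 0.24 ± 0.15 and GABARAPL2 0.01 ± 0.15, with adjusted p of 0.33 and 0.978. MAP1LC3B2 is a near-identical copy of MAP1LC3B whose reads cannot be told apart with certainty, and it was 1 of the 3 of 5 tested ATG8 genes at least 1.5-fold higher in both lines at both doses, beside 3.09% of all genes in both lines at 5 µM and 1.11% at 2.5 µM.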

How the data were processed

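RNA was sequenced from 12 libraries of the lung cancer lines NCI-H1975 and HCC827. The authors deposited FPKM values per gene in 1 table for the 18E libraries and 1 for the siRNA libraries, per the file headers. Per the submitters' processing notes, Bowtie 0.12.2 was a tool and mm8 (a mouse build) and GRCh38.p12 were genome builds, without a role for any of them. How FPKM were quantified, with which annotation and with or without strand, is not given in the sources used here. Depth is unknown, so no counting interval was given. Of 16800 and 17462 lines, 40 and 20 that held no complete gene were left out.

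A gene was tested if 2 or more of the 6 libraries in a table reached 1 FPKM. The tests ran on log2(FPKM + 1) with limma 3.58.1 in R 4.3.3 (11953 genes with 18E, 11718 with siRNA). Cell line was a block, the prior variance had a trend, tests were two-sided and p-values were adjusted by Benjamini-Hochberg over all genes. There were 2 residual degrees of freedom for 18E and 3 for siDYN against siCON. There were 2 where the siRNAs were fitted apart and in the siDYN line difference. The block rests on the lines: libraries with the same number come from the same line. The tables were fitted apart, and the fitting script was tested on simulated data. Changes of single libraries carry no test.

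Members named in full were those at least 1.5-fold changed in both lines at 5 µM or in all 4 siDYN libraries, then those with an unadjusted p under 0.05 in any comparison, up to 4 per step. The members and lists were chosen with earlier results of these data known. Alternatives were a pseudocount of 0.1, no filter, quantile normalization, FPKM totals made equal, a fit without the variance trend, one without the line term, single siRNAs, a 2-fold call and each library left out. The same alternatives for siDYN-2 against siDYN-1, the doses, the line differences and single libraries were chosen after seeing the data. Gene positions and exon overlaps are from GENCODE 29 on GRCh38.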

Additional observations from a re-analysis of the deposited data

Results flagged for a closer look

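For 10 members both treated libraries of one line moved one way and both of the other line moved the opposite way, which is why they are listed here. The share of all genes with this pattern was not counted, so the number of members is not read as a result. The difference between the lines was tested as an interaction by limma, and none passed. With 18E the HCC827 change minus the NCI-H1975 change was 1.25 for ATG14, 0.69 for RB1CC1, 0.60 for WIPI2, 0.50 for AMBRA1, 0.48 for ULK2, 0.48 for ATG9A, 0.19 for BECN1 and -0.25 for ATG7. The unadjusted p was 0.0577 for ATG14 and at least 0.201 for the other 7 genes, with an adjusted p of 0.999 for each. With siDYN the difference was -0.63 for ATG10 and -0.25 for ATG4B, with unadjusted p of 0.184 and 0.504 and an adjusted p of 1.0.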

How the results depend on the processing

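The 26 member changes given in full kept their direction in every alternative. At an unadjusted p under 0.05, 26 of 26 were kept with a pseudocount of 0.1, 25 with no variance trend and 24 with no filter. With quantile normalization 22 were kept, and 19 with equal FPKM totals. Only 2 of the 26, WDR45 at 5 µM and WDR45B between the siRNAs, were kept in every alternative, each library left out included. Setting aside the fit without the line term, 4 of the 26 were kept in every other alternative. Without the replicate block (no line term) 5 were kept. The members called higher and lower were then 1 and 0 at 5 µM, beside 1.85% and 2.55% of all genes. They were 1 and 1 with siDYN, beside 3.14% and 4%, and 1 and 1 between the siRNAs, beside 1.89% and 1.05%. At 2.5 µM 0 were higher, beside 0.251%, and between the doses 0 were higher, beside 0.452%. The median change of the members was 0.01 (0.0053) at 2.5 µM and -0.15 with siDYN under equal FPKM totals. That scaling gave 6 members lower at 5 µM, beside 23.1% of all genes, and 2 higher with siDYN, beside 7.81%. Between the doses it gave 0 higher and 1 lower, beside 2.5% and 11.6%. At least 1.5-fold in both lines at 5 µM, 0 were higher and 1 lower. That last count of higher members was 2 with a pseudocount of 0.1 or quantile normalization and 0 at 2-fold. The share of all genes for this count is given above for the main scaling only. Between the doses 2 were higher with the pseudocount of 0.1, beside 3.76% of all genes, and 3 with quantile normalization, beside 5.09%. At 2.5 µM 0 were higher with no filter, beside 2.61%, and the siDYN line difference had 1 higher with the pseudocount, beside 0.785%. With siDYN-1 alone 3 members were called higher, beside 12.6% of all genes, and with siDYN-2 alone 10, beside 20.9%.

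With each library left out, members higher and lower ranged over 2 to 16 and 0 to 6 at 5 µM, 0 to 3 and 0 to 1 at 2.5 µM, 0 to 12 and 0 to 3 between the doses, 0 to 7 and 0 to 3 with siDYN, and 4 to 6 and 1 to 4 between the siRNAs. The members' median ranged from -0.02 to 0.28 at 5 µM, from -0.0511 to 0.1023 at 2.5 µM (-0.0033 without the NCI-H1975 library at that dose and -0.0511 without the HCC827 DMSO library) and from -0.0775 to 0.0505 with siDYN (0.0505 without the HCC827 siCON library). The share of all genes called also shifted with the library left out, as the shares beside the counts in Results show. The ranges of counts are therefore not read as particular to the members. The cause of these shifts was not tested.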
